A study of Mus musculus with 22 samples.

Results

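The Prader-Willi imprinted domain of mouse chromosome 7 was described from 7 member genes: Snrpn, Snurf, Ube3a, Ndn, Magel2, Mkrn3 and Atp10a. The members are the 50 kb windows of the mm10 genome that overlap the RefSeq span of any of these genes, 21 of the 54520 windows in the series. With the windows in between, the domain ran over 87 windows, chr7:58650001-63000000. It was picked because γH2AX was high in 3Rb mice at chr7:59950001-60000000 and because both marks differed in other ways at chr7:60450001-60500000, so the members were selected on those differences, which are described here with no test.

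The series holds 22 chromatin immunoprecipitation sequencing (ChIP-seq) libraries of whole mouse testis: 10 of γH2AX, 9 of the histone variant H3.3 and 3 of input DNA, which is sheared chromatin with no antibody step. γH2AX is histone H2AX phosphorylated at serine, a mark of DNA breaks and of the unsynapsed X and Y in spermatocytes, and H3.3 is deposited outside replication at active genes and on those sex chromosomes. The study compared mice that carry Robertsonian translocations, in which whole chromosomes are joined at their centromeres, with controls.

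For γH2AX, at 4 weeks of age, 1Rb_M, 1Rb_P and 3Rb had 3 libraries each, and the control B6 (C57BL/6J) had 1, whose antibody label gives another supplier for the same clone. The 1Rb_M mice were F1 of CBy.RBF-Rb(8.12)5Bnr/J and B6.SPRET7MOLF12, and the 1Rb_P mice were F1 of C57BL/6J and CBy.RBF-Rb(8.12)5Bnr/J. Both carry 1 translocation in the heterozygous state. The 3Rb mice were F1 of B6.SPRET7MOLF12 and RBF/Dnj and are heterozygous for 3. For H3.3, at 6 weeks, there were 3 libraries each of 1Rb, with the strain label of 1Rb_M, of 3Rb, and of the control Cg (B6.SPRET7MOLF12, no translocation). The inputs were 1 each of 1Rb_M and B6 at 4 weeks and of Cg at 6 weeks, and the strain given for the 1Rb_M input is that of the other 1Rb cross. No 3Rb input was used here. Translocation number and parental strains change together between groups and cannot be told apart, and the labels do not explain the SPRET7 and MOLF12 elements of the control strain's name.

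In an imprinted domain, genes are expressed from only the maternal or only the paternal copy. In this domain Snrpn, Snurf, Ndn, Magel2 and Mkrn3 are expressed from the paternal copy, and Ube3a, a ubiquitin ligase gene, from the maternal copy in neurons. The imprinting centre at the Snurf and Snrpn start is methylated on the maternal copy, and a long noncoding RNA that starts there or further upstream, Snhg14, carries arrays of small nucleolar RNA (snoRNA) genes and runs antisense into Ube3a.

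Snrpn, which encodes a splicing protein, has 4 RefSeq start sites on the minus strand, and they are shown because the differences below lie on either side of them. The Snurf start is the first of these, and Snhg14 shares the last. All 7 member genes matched the RefSeq promoter table (GRCm38.p6, 250 bases before to 50 bases after a start), which gave 9 distinct promoters. Capitals mark the letters CGCATGCG, which read the same on both strands and are the core of the motif bound by NRF1. The motif was chosen after the sequences were seen.
Snrpn and Snurf start, chr7:60005150-60005449: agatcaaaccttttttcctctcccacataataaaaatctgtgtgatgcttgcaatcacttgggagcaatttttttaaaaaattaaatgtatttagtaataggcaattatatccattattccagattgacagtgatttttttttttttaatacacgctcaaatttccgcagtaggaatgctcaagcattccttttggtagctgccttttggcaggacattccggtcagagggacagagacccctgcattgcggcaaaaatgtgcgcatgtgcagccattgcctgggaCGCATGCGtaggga
Snrpn second start, chr7:60047929-60048228: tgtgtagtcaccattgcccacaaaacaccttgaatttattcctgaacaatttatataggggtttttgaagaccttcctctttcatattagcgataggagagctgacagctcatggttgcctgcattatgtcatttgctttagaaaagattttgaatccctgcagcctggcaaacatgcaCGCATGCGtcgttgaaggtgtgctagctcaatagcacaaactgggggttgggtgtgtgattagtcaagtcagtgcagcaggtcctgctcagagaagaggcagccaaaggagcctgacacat
Snrpn middle start, chr7:60140176-60140475: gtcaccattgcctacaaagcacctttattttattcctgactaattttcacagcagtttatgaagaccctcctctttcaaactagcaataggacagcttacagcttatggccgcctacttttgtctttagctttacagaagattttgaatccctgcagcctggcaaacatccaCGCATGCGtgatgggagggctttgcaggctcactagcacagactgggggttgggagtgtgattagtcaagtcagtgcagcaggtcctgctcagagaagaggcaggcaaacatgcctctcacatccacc
Snrpn most upstream start, chr7:60450128-60450427: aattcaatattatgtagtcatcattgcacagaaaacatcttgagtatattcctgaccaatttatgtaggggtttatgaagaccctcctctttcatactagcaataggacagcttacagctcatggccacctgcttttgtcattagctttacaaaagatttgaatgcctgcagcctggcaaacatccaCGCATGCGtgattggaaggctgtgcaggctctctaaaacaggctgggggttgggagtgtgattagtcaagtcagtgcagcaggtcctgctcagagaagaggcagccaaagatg
Each of the 4 held the motif once, as did the promoter of Ndn, so that 5 of the 9 member promoters held it, against 611 of 32817 promoters of the same length (1.86%). The 3 upstream Snrpn promoters were 79.7 to 81.4% identical to each other in pairwise global alignment and 50.4 to 53.0% identical to the promoter at the Snurf start. They had 2 to 4 CpG dinucleotides each, against 7 at the Snurf start, 29 at Ube3a and a median of 7 over all promoters. A window of 50 kb holds the start and much beyond it, so no count can be placed at a promoter, and reads from such similar copies or from the snoRNA repeats may not be told apart.

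Library totals ran from 21535147 to 56385465 counts for γH2AX, 41278440 to 128348440 for H3.3 and 11876426 to 51651953 for input. The counting error of a window at the chromosome 7 median was 3.67 to 6.18%, 2.22 to 3.99% and 3.27 to 6.82%. X-linked windows took 12.3 to 20.6% of the γH2AX counts against 3.16 to 3.17% of the input counts, the X and Y of spermatocytes being known as rich in γH2AX. Among the 1Rb_M libraries, replicates 1 and 2 both had 12.3% on X and replicate 3 had 18.9%. The share was 17.7 to 18.4% in 1Rb_P and 17.9 to 18.9% in 3Rb. Because the 1Rb_M libraries differ, fitted differences from 1Rb_M in the domain are also given without replicate 3. That keeps replicates 1 and 2, whose X share is unlike 1Rb_P and 3Rb, so these values are not a cleaner estimate. No fit without both replicates 1 and 2 was run. The labels do not say that replicates are separate animals, so p-values measure the spread between these samples. In whole testis, a change in the mix of cells and a change per cell cannot be told apart.

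Levels of single libraries are given as relative levels, the count of a window (or the mean count of several) divided by the library's median count over chromosome 7 windows outside the domain. Log2 differences between groups are from edgeR with its own scaling over all windows. On that scale the rest of chromosome 7 itself stood at a median of −0.13 for γH2AX in 3Rb against 1Rb_M and −0.05 against 1Rb_P, so relative levels of 3Rb γH2AX sit higher by that much. For H3.3 the same medians were −0.01 for 3Rb against 1Rb and 0.00 against Cg.

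**Figure D1:**
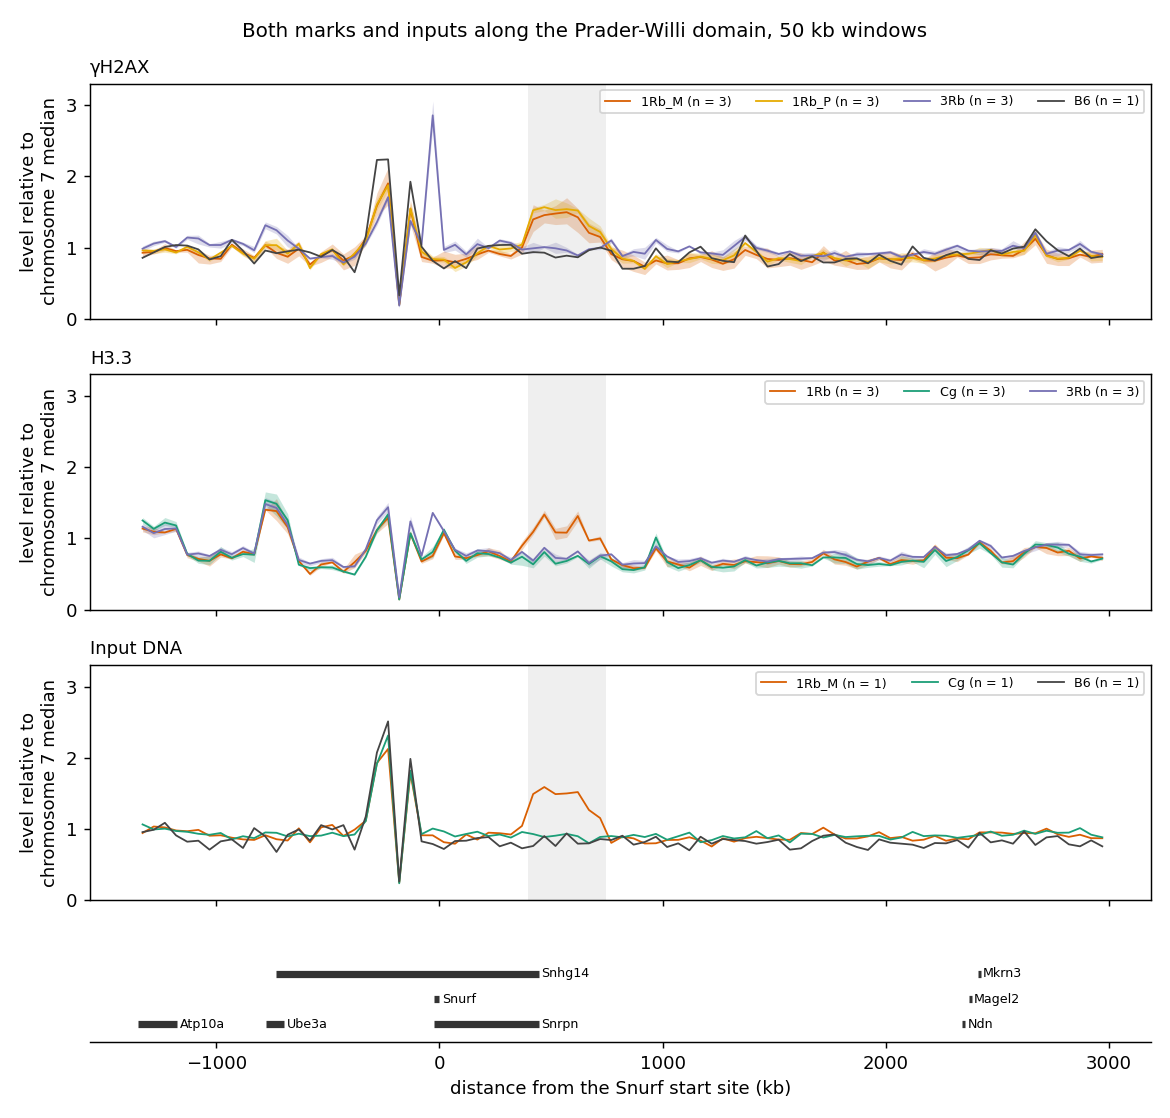
Relative levels (window count over the library's chromosome 7 median) of γH2AX, H3.3 and input along the 87 windows, by distance in kb from the Snurf start, with lines for group means, bands from the lowest to the highest of 3 libraries and gene spans below. The 3Rb libraries are furthest above the others in 1 window beside the Snurf start, and the grey segment of 7 windows is raised in all 1Rb groups and in the 1Rb_M input.

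The window at the 3′ part of Snurf and Snrpn, chr7:59950001-60000000, held the largest difference of the domain in 3Rb for both marks. Snurf encodes a small protein upstream of Snrpn on the same transcript. The relative γH2AX level was 2.83, 2.68 and 3.05 in the 3Rb libraries. It was 0.80, 0.86 and 0.78 in 1Rb_M, 0.82, 0.81 and 0.88 in 1Rb_P and 0.81 in B6. All 3Rb libraries therefore lay far above every other γH2AX library, which were close to one another. Lack of overlap alone was common: every 3Rb library was above every 1Rb_M library in 49.7% of all windows, and above every 1Rb_P library in 35.1%.

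H3.3 in the same window was 1.38, 1.35 and 1.34 in 3Rb. It was 0.80, 0.75 and 0.71 in 1Rb and 0.73, 0.88 and 0.81 in Cg. The 3Rb libraries were again above all others, with no overlap, while 1Rb and Cg overlapped. In H3.3 every 3Rb library was above every 1Rb library in 12.3% of all windows, and above every Cg library in 10.9%. The inputs were 0.91 in 1Rb_M, 1.01 in Cg and 0.79 in B6, so none of the 3 was raised. Whether DNA of the 3Rb cross is raised in this window was not tested, because no 3Rb input was used.

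The log2 difference of γH2AX was 1.67 ± 0.07 (SE) in 3Rb against 1Rb_M (1.61 without 1Rb_M replicate 3) and 1.71 ± 0.07 against 1Rb_P. For H3.3 it was 0.84 ± 0.06 against 1Rb and 0.78 ± 0.05 against Cg. These are the values that chose the window. The windows on either side differed far less. In the next window, chr7:60000001-60050000, which holds the Snurf start and the imprinting centre, γH2AX in 3Rb differed by 0.08 ± 0.09 from 1Rb_M (−0.04 without 1Rb_M replicate 3) and 0.16 ± 0.09 from 1Rb_P. H3.3 there differed by 0.03 ± 0.05 from 1Rb and −0.01 ± 0.05 from Cg. One window further, chr7:60050001-60100000, γH2AX in 3Rb differed by 0.24 ± 0.09 (0.14 without that library) and 0.48 ± 0.09. On the other side, chr7:59900001-59950000 gave 0.12 (0.04 without that library) and 0.09 for γH2AX and 0.15 and 0.12 for H3.3.

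**Figure D2:**
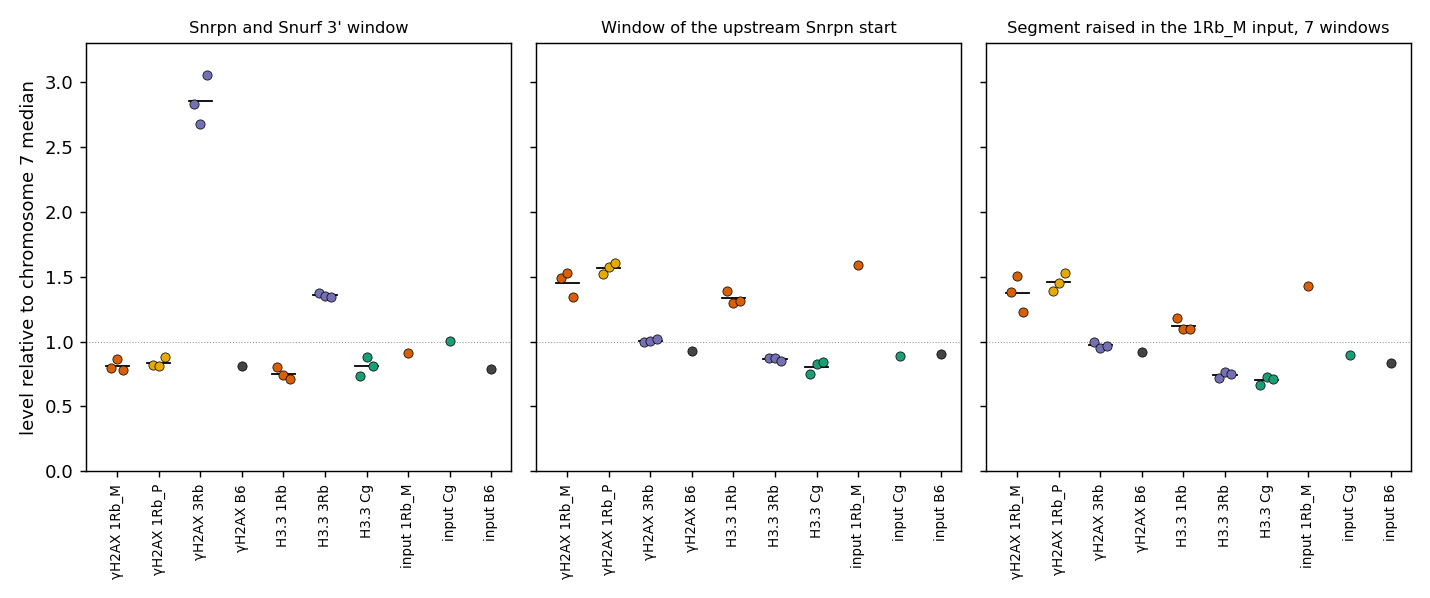
Relative levels (count over the library's chromosome 7 median, linear axis) of single libraries in the Snrpn and Snurf window, in the window of the most upstream Snrpn start and over the 7-window segment, with 1 point a library and a bar at the mean of 3. In the first panel only the 3Rb libraries of both marks are raised, and in the other panels the raised libraries are those of 1Rb_M, 1Rb_P, 1Rb and the 1Rb_M input.

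Around the most upstream start of Snrpn and Snhg14 the order of the groups was the other way round. In its window, chr7:60450001-60500000, γH2AX was 1.49, 1.53 and 1.35 in 1Rb_M and 1.52, 1.57 and 1.61 in 1Rb_P. It was 0.99, 1.01 and 1.02 in 3Rb and 0.93 in B6. Every 1Rb library was above every 3Rb library and B6. Over all windows, every 3Rb library was below every 1Rb_M library in 8.84%, and below every 1Rb_P library in 14.9%.

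H3.3 in that window was 1.39, 1.30 and 1.31 in 1Rb against 0.87, 0.88 and 0.85 in 3Rb and 0.75, 0.83 and 0.85 in Cg. The input moved in the same way, at 1.59 in 1Rb_M against 0.89 in Cg and 0.90 in B6. All libraries raised here, inputs included, came from crosses with CBy.RBF-Rb(8.12)5Bnr/J, and those of 3Rb, Cg and B6 did not. Fitted log2 differences of 3Rb were −0.68 ± 0.07 from 1Rb_M (−0.76 without 1Rb_M replicate 3) and −0.69 ± 0.07 from 1Rb_P for γH2AX, and −0.63 ± 0.05 from 1Rb and 0.13 ± 0.05 from Cg for H3.3.

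The raised stretch was extended from chr7:60450001-60500000, a window that picked the domain, by the inputs alone. It took adjoining windows for as long as the 1Rb_M to Cg input ratio was over 1.2. It covered 7 windows and 350 kb, chr7:60400001-60750000: the first 2 overlap Snrpn, and the other 5 lie beyond its start, between Snrpn and Ndn. Over the segment the 1Rb_M input was 1.61 times the Cg input (95% exact binomial interval 1.55 to 1.66) and 1.72 times the B6 input (1.62 to 1.82), while Cg was 1.07 times B6 (1.00 to 1.14). Intervals here cover counting error only. The cut of 1.2 defined the segment, so the 1Rb_M to Cg ratio in it and beside it describes that choice and tests nothing. Single windows of the segment had ratios of 1.30 to 1.79, with 1.09 in the window before it and 0.89 in the window after it. Over 48016 autosomal windows the median ratio was 0.99, and 127 of them (0.26%) were above the lowest of the segment.

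Over the whole segment, H3.3 was 1.12 ± 0.05 (SD, n = 3) in 1Rb, 0.70 ± 0.03 in Cg and 0.75 ± 0.02 in 3Rb. The 1Rb to Cg ratio of 1.60 became 1.00 after Cg was divided by the Cg input and 1Rb by the 1Rb_M input. The 1Rb_M input is from younger mice than the H3.3 libraries, and its strain label is that of the other 1Rb cross. γH2AX was 1.37 ± 0.14 in 1Rb_M, 1.46 ± 0.07 in 1Rb_P, 0.97 ± 0.02 in 3Rb and 0.92 in B6. The ratio to B6 was 1.49 for 1Rb_M and 1.58 for 1Rb_P, and 0.87 and 0.92 after division by input (the 1Rb_M input for both, the B6 input for B6). Without 1Rb_M replicate 3 the 1Rb_M mean was 1.44, 1.57 times B6, and 0.91 after division. After division by input, neither mark was higher in the 1Rb groups in this segment. These quotients have 1 input a side and no test, and 3Rb could not be divided by an input of its own.

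**Figure D3:**
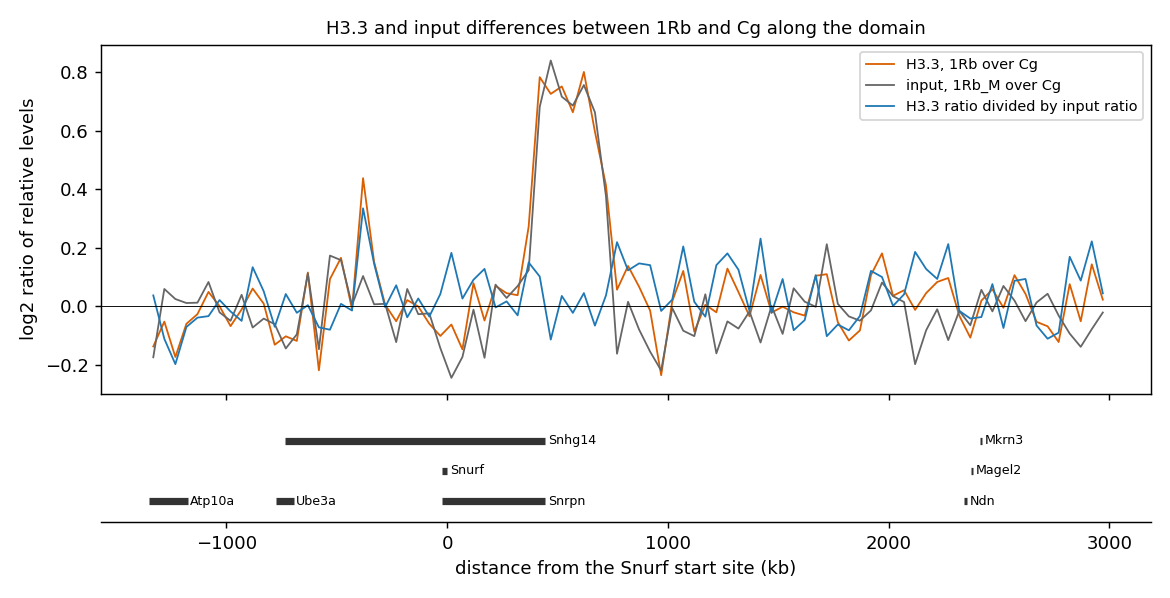
Log2 ratios of relative levels along the 87 windows by distance in kb from the Snurf start: H3.3 of 1Rb over Cg, the 1Rb_M input over the Cg input, and the first divided by the second. H3.3 and input rise together over the 7-window segment, and the quotient stays near 0 there, while 1 window in the snoRNA arrays keeps a quotient of 0.33.

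H3.3 in 1Rb against Cg was not used to pick the domain outside the 2 windows of the rule, and it was tested over all 53117 windows with edgeR's quasi-likelihood test. Leaving out those 2 windows, 8 of 85 domain windows were called higher in 1Rb and 1 lower, 10.6% in all, against 3.71% of all windows tested (1.08% higher and 2.62% lower). The other 6 windows of the segment made up most of these, with log2 differences of 0.44 to 0.82. They lie in 1 stretch with a window of the rule, where the 1Rb_M input was also raised. The 10.6% is therefore not independent of the choice of the domain, and these 6 windows are described only. Without the segment, 2 of 79 windows were called higher and 1 lower, which is close to the share over all windows.

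The Snrpn window just outside the segment, chr7:60350001-60400000, was higher by 0.34 ± 0.07 (adjusted p = 0.0012). That value was 0.20 without Cg replicate 1 (adjusted p = 0.0409, the largest over 12 alternatives). The input ratio there was 0.12 on the log2 scale, and the quotient was 0.15. In the snoRNA arrays, chr7:59600001-59650000 was higher by 0.45 ± 0.08 (adjusted p = 0.000152, at most 0.00304 over 12 alternatives). There the relative H3.3 level was 0.59 to 0.78 in 1Rb, 0.48 to 0.50 in Cg and 0.59 to 0.63 in 3Rb, so that 1Rb lay above Cg but overlapped 3Rb. The input ratio was 0.10 on the log2 scale, and 0.33 remained after division by input. The window called lower, chr7:60950001-61000000, was at −0.20 ± 0.06 (adjusted p = 0.0338), a call that 6 of 12 alternatives kept, and its quotient by input was −0.02.

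γH2AX was next compared between the 1Rb_M and 1Rb_P crosses. Their labels also differ in the other parental strain, so parent of origin and strain cannot be told apart. No window of the domain was called higher or lower by edgeR, where 1.36% of all windows were called (0.299% higher and 1.06% lower). At an unadjusted p under 0.05 there were 6 such windows, and DESeq2 also called 0. The window furthest apart was chr7:60050001-60100000, beside the second Snrpn start, at 0.24 ± 0.09 (adjusted p = 0.147), and the median over the domain was 0.07. The rest of chromosome 7 had a median of 0.08, with 1.27% of its windows called higher and 0% lower. Over the segment the median was 0.00. The count of 0 rested on 1Rb_M replicate 3. Without it, the domain median was 0.15, the segment median 0.09 and the difference beside the second Snrpn start 0.34 (edgeR, adjusted p = 0.000136). In that fit 34 of 87 windows were called higher in 1Rb_M and 0 lower, where 10% of all windows were called higher and 15.3% lower. The rest of chromosome 7 has no count from that fit here, so the 34 windows cannot be read as particular to the domain.

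**Figure D4:**
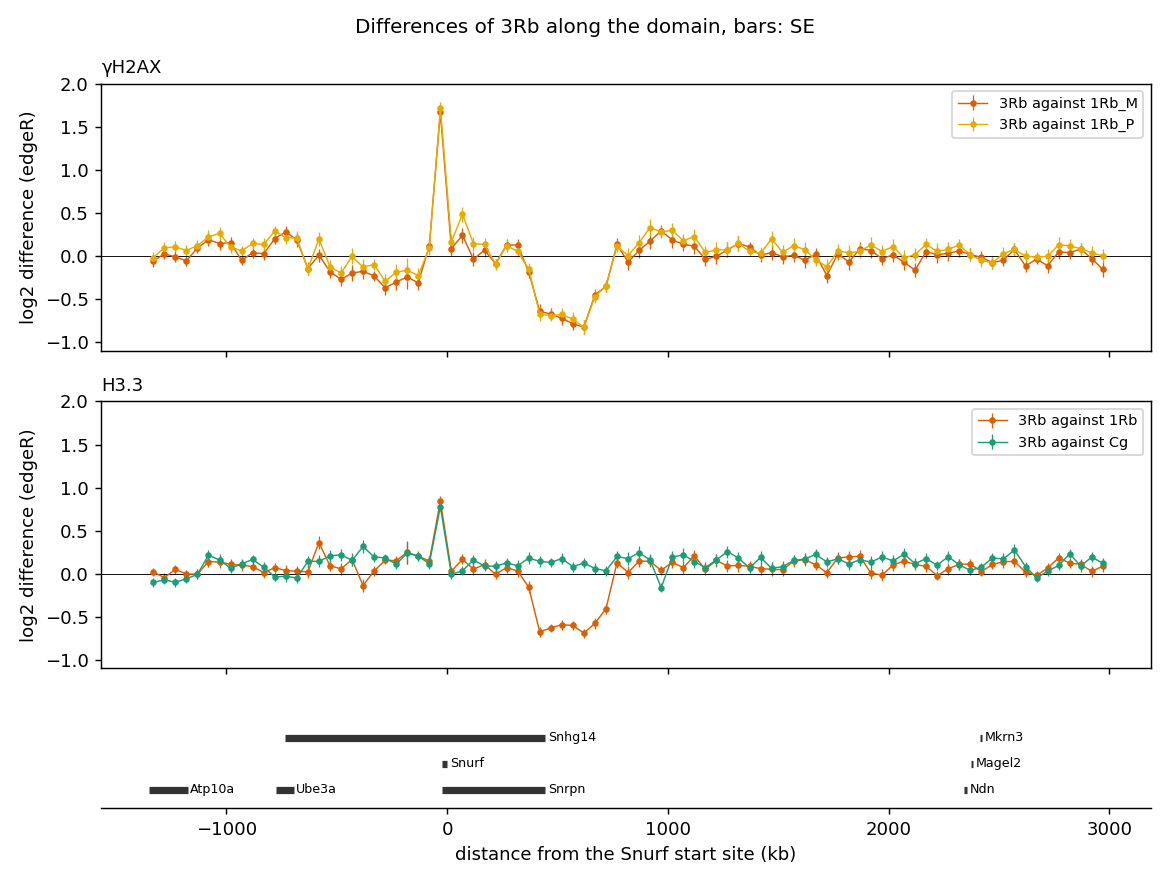
Log2 differences of 3Rb from the other groups (edgeR, points with SE bars) for γH2AX and H3.3 along the 87 windows by distance in kb from the Snurf start. The window beside the Snurf start is the highest point in all 4 series, and the 7-window segment is the low stretch against 1Rb_M, 1Rb_P and 1Rb but not against Cg.

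The 4 comparisons with 3Rb chose the domain, so their counts are given beside the share of all windows and nothing is read from them. Comparisons of 1 mark share the 3Rb libraries. For γH2AX against 1Rb_M, 5 domain windows were called higher and 14 lower, where 38.1% of all windows were called (17.9% higher and 20.2% lower). Scaled to the median of chromosome 7 they were 41 and 8, where 49.5% and 8.11% of all windows were called, since that scaling moves every window up by about 0.15. Without 1Rb_M replicate 3 they were 4 and 28, where 23.3% and 22.9% were called. Against 1Rb_P 9 were called higher and 9 lower, where 22.9% were called (10.1% and 12.8%), and 27 and 8 when scaled to chromosome 7, where 18.1% and 8.1% were called. Of these, 7 lower windows in each comparison were the segment, with log2 differences from −0.83 to −0.36 against 1Rb_M (−0.96 to −0.43 without replicate 3) and −0.83 to −0.35 against 1Rb_P.

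For H3.3 in 3Rb against 1Rb, 4 domain windows were called higher and 7 lower, where 6.1% were called (2.08% and 4.02%), and the 7 were again the segment. Against Cg 20 were called higher and 1 lower, where 9.51% were called (3.34% and 6.16%), and 10 and 0 when scaled to chromosome 7, where 2.3% and 5.75% were called. The segment had 0 called against Cg, with a median of 0.12. Besides the Snrpn and Snurf window, the largest differences from Cg were in the snoRNA arrays at chr7:59600001-59650000 (0.32 ± 0.08) and in 3 windows with no member, chr7:62550001-62600000 (0.28), chr7:61250001-61300000 (0.26) and chr7:60850001-60900000 (0.25). Of the 20 windows, 1 was a member.

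Ube3a lay in 3 windows, chr7:59200001-59350000. It had the highest H3.3 of the members, with a relative level of 1.31 ± 0.08 (SD, n = 3) in 1Rb, 1.37 ± 0.07 in 3Rb and 1.42 ± 0.12 in Cg. The ranges were 1.24 to 1.39, 1.32 to 1.45 and 1.30 to 1.54, so the groups overlapped. Inputs were 0.87, 0.93 and 0.83 in 1Rb_M, Cg and B6. None of the 3 windows was called in H3.3 of 1Rb against Cg, with differences of −0.11, −0.07 and −0.08.

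γH2AX over Ube3a was 1.27, 1.21 and 1.17 in 3Rb, 0.92, 1.03 and 0.88 in 1Rb_M, 0.94, 0.99 and 1.05 in 1Rb_P and 0.94 in B6. The 3Rb libraries were above all others. On this scale, however, every 3Rb library was above every 1Rb_M library in 49.7% of all windows. Against 1Rb_P the share was 35.1%. The fitted differences of the 3 Ube3a windows were 0.20, 0.28 and 0.19 from 1Rb_M (0.15, 0.19 and 0.08 without 1Rb_M replicate 3). From 1Rb_P they were 0.29, 0.21 and 0.21. Atp10a, which encodes a phospholipid transporter and is the member furthest from the imprinting centre, covered 4 windows. Its H3.3 was 1.11 ± 0.03 in 1Rb, 1.13 ± 0.04 in 3Rb and 1.196 ± 0.006 in Cg, and none of its windows was called in 1Rb against Cg. Its γH2AX was 0.95 ± 0.03 in 1Rb_M, 0.95 ± 0.01 in 1Rb_P, 1.03 ± 0.02 in 3Rb and 0.96 in B6.

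Between Ube3a and Snrpn, the snoRNA arrays of Snhg14 took 12 windows, chr7:59350001-59950000. Their counts were uneven in all libraries, inputs included. The window chr7:59750001-59800000 stood at 2.13, 2.31 and 2.51 times the chromosome 7 median in the 1Rb_M, Cg and B6 inputs, and the next one at 0.25, 0.24 and 0.27. γH2AX followed this shape, from 1.71 in 3Rb to 2.24 in B6 in the first and from 0.18 to 0.33 in the second. In H3.3 the first was at 1.29 in 1Rb, 1.44 in 3Rb and 1.34 in Cg, well under its inputs. Over the 12 windows H3.3 was 0.73 ± 0.02 in 1Rb, 0.80 ± 0.03 in 3Rb and 0.71 ± 0.01 in Cg.

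The intronless genes Ndn, Magel2 and Mkrn3 lie together in 3 adjoining windows, chr7:62300001-62450000, and none was called in H3.3 of 1Rb against Cg or in γH2AX of 1Rb_M against 1Rb_P. Ndn and Magel2 encode related MAGE proteins, and Mkrn3 encodes a ring finger protein that restrains puberty. H3.3 at Ndn was 0.79, 0.70 and 0.67 in 1Rb, 0.77, 0.78 and 0.80 in 3Rb and 0.69, 0.78 and 0.74 in Cg, with all groups overlapping. At Magel2 H3.3 was 0.77 ± 0.01 in 1Rb, 0.84 ± 0.04 in 3Rb and 0.83 ± 0.05 in Cg, and at Mkrn3 it was 0.94 ± 0.03, 0.97 ± 0.03 and 0.93 ± 0.06.

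γH2AX at Ndn was 0.86, 0.94 and 0.87 in 1Rb_M, 0.87, 0.90 and 0.94 in 1Rb_P, 0.97, 1.05 and 1.05 in 3Rb and 0.94 in B6. Magel2 ranged from 0.77 to 0.97 over the 9 carrier libraries and Mkrn3 from 0.77 to 1.00. Fitted differences of 3Rb at the 3 genes were −0.02 to 0.06 from 1Rb_M (−0.11 to 0.01 without replicate 3) and −0.05 to 0.13 from 1Rb_P for γH2AX, and 0.02 to 0.11 from 1Rb and 0.04 to 0.10 from Cg for H3.3. Their inputs were 0.74 to 0.95.

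To place the members against the rest of chromosome 7, each library was divided by the 3 pooled inputs, and the log2 ratio over the rest of chromosome 7 was subtracted. This level was not itself used to pick the domain, but the domain and its member windows include both windows of the rule. Their levels are therefore not independent of that choice. They also include windows of the segment, where the raised 1Rb_M input is part of the pooled input. The 49 windows named below hold none of these. Levels were tested by a two-sided exact sign-flip permutation test over 9 libraries, where the smallest possible p is 0.00391. The libraries come from 3 groups and share the pooled inputs. H3.3 over the whole domain was −0.46 ± 0.07 (SD, n = 9; exact p = 0.00391), a fold of 0.72, and below 0 in all 9 libraries. Over the 21 member windows alone it was −0.16 ± 0.05 (exact p = 0.00391), a fold of 0.90, and over the 49 windows outside the members, the segment and the snoRNA arrays it was −0.50 ± 0.09 (exact p = 0.00391). Without the segment it was −0.45. γH2AX over the domain was 0.00 ± 0.08 (exact p = 0.965), with 5 of 9 libraries above 0. The reference is a sum over chromosome 7, so 0 is not the level of a typical window. For H3.3, the Mkrn3 window at −0.18 ranked at the 51.4 percentile of autosomal windows. The Snrpn window chr7:60250001-60300000, at −0.47, ranked at the 17.2. For γH2AX, the window with the Snurf start, at −0.01, ranked at the 21.8.

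H3.3 by member, in 14 tests with Benjamini-Hochberg adjustment, was above the rest of chromosome 7 only at Ube3a among the 7 genes, at 0.42 ± 0.10 (9 of 9 libraries; exact permutation test, adjusted p = 0.0109). Its 3 windows ranked at the 89.2, 90.9 and 79.8 percentiles of 48017 autosomal windows. H3.3 was lower at Ndn (−0.42 ± 0.10), Snrpn (−0.39 ± 0.10), Magel2 (−0.27 ± 0.09) and Mkrn3 (−0.18 ± 0.07), each below 0 in 9 of 9 libraries with the same adjusted p of 0.0109 (exact permutation test). Against autosomal windows, however, Magel2 ranked at the 43.9 percentile and Mkrn3 at the 51.4, near the middle, and Ndn at the 26.1. The 11 Snrpn windows ranged from the 0.44 percentile, inside the segment, to the 73.2. They include both windows of the rule, so the Snrpn level is not independent of the choice of the domain. Atp10a, at 0.00 ± 0.06, did not pass (exact permutation test, adjusted p = 0.941). Nor did Snurf, at −0.01 ± 0.21 (exact permutation test, adjusted p = 0.941), but its windows include 1 window of the rule. The Snurf group means were −0.18 in 1Rb, 0.26 in 3Rb and −0.10 in Cg, so its mean joins groups on both sides of 0. In the order of levels, Ndn and Snrpn were within their spread of each other, as were Atp10a and Snurf.

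Within Snrpn, H3.3 was uneven. The window with the Snurf start was at 0.15 ± 0.06 (9 of 9 libraries above 0, exact permutation p = 0.00391, not among the 14 tests). The windows from chr7:60100001 to chr7:60400000 were at −0.60 to −0.37. The 2 Snrpn windows inside the segment were at −0.75 and −0.49, but there the raised 1Rb_M input is part of the pooled input. The lowest H3.3 of the domain was in the snoRNA arrays, −0.83 ± 0.10 over 12 windows (exact p = 0.00391), of which chr7:59700001-59750000 was at −0.93, the 0.04 percentile of autosomal windows.

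γH2AX over input passed only at Ube3a among the 7 genes, at 0.21 ± 0.18 (8 of 9 libraries above 0; exact permutation test, adjusted p = 0.0182). Its windows ranked at the 74.5, 75.7 and 46.5 percentiles of autosomal windows, so the third was near the middle. Means by group stood at 0.07 for 1Rb_M, 0.13 for 1Rb_P and 0.43 for 3Rb, and B6 was at 0.05, so the value leans on 3Rb, whose difference chose the domain. Snrpn was at 0.11 ± 0.13 (7 of 9; exact, adjusted p = 0.0781), and its 11 windows include both windows of the rule. Ndn, Magel2, Mkrn3 and Atp10a were between −0.06 and 0.09, with adjusted p from 0.0911 to 0.189 (exact permutation test). Snurf was at −0.15 in 1Rb_M, −0.14 in 1Rb_P, 1.06 in 3Rb and −0.28 in B6. The snoRNA arrays were at −0.20 ± 0.08, with all 9 libraries below 0 (exact p = 0.00391), and B6 at −0.01.

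**Figure D5:**
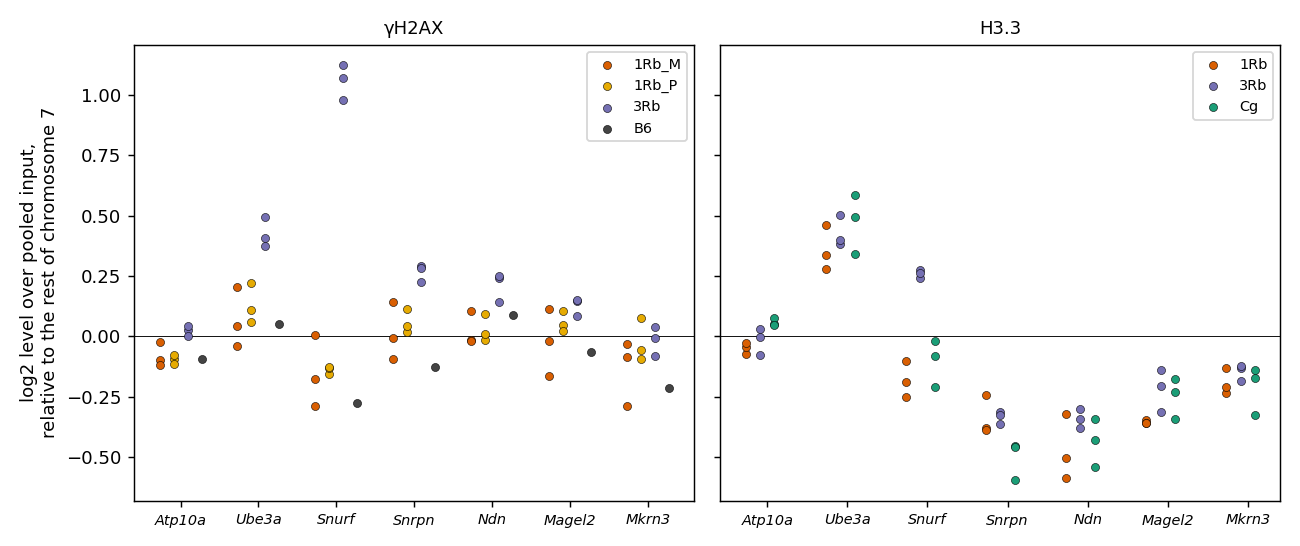
Log2 level over the pooled input, relative to the rest of chromosome 7, at the 7 member genes for γH2AX and H3.3, with 1 point a library coloured by group. H3.3 is above 0 in all libraries at Ube3a and below 0 in all at Snrpn, Ndn, Magel2 and Mkrn3, and γH2AX at Snurf is high in the 3Rb libraries alone.

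Imprinted genes elsewhere were counted in the same contrasts. At 67 windows of 34 other imprinted genes, H3.3 in 1Rb against Cg was called by edgeR in 0 (3 at an unadjusted p under 0.05), where 3.71% of all windows were called. γH2AX in 1Rb_M against 1Rb_P was called in 2, both higher (2.99%, beside 0.299% of all windows higher and 1.06% lower). Without 1Rb_M replicate 3, the shares of all windows in that contrast were 10% higher and 15.3% lower. The 67 windows have no count from that fit here, so their 2.99% is not set against these shares. γH2AX in 3Rb against 1Rb_M, described only, had 4 higher and 29 lower of the 67 (5.97% and 43.3%, beside 17.9% and 20.2% of all windows). The median was −0.11, beside 0.01 over all windows and −0.13 over the rest of chromosome 7, where 42.4% were called lower. Against 1Rb_P only 1 was called higher and 3 lower (1.49% and 4.48%, beside 10.1% and 12.8% of all windows), with a median of −0.05.

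By Pearson correlation of log2 CPM (counts scaled to a common library size) over the 9 libraries of 1 mark, given as a description over libraries that share groups, the gene-bearing windows most like the Snrpn and Snurf window in γH2AX held Rgs20 (r = 0.997), Cwc22 (0.996) and Oxsm with Ngly1 (0.996). In 3Rb against 1Rb_M these stood at 0.68, 2.01 and 0.87, beside 1.67 at Snrpn and Snurf. In H3.3 they held Gm21244 on Y, Tdpoz3 and Gm42346 (0.989 to 0.990). Most like the window of the upstream start were, in γH2AX, windows with Olfr819, Mup17 and 1700025G04Rik (0.987 to 0.992), and in H3.3 with Gm19428, Vmn2r111 and E030030I06Rik (0.964 to 0.991).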

How the data were processed

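Each deposited table gives the counts of 1 library in 50 kb windows of mm10. The tools named in the submitters' processing notes are CASAVA 1.8 and BWA. Their settings, duplicate removal and the treatment of reads with several positions are not given in the sources used here. Groups came from the sample titles. The members and gene lists were chosen with earlier results of these data known.

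For each mark, 9 libraries in 3 groups were fitted in R 4.3.3 with edgeR 4.0.16, using windows whose mean count reached 10, trimmed mean of M-values (TMM) scaling, the quasi-likelihood test, Benjamini-Hochberg adjustment over all windows tested and a call at an adjusted p under 0.05. The B6 library, alone in its group, was described with no test. Levels over input were compared by exact sign flips (numpy 2.4.6). Alternatives were DESeq2 1.42.0, library totals, no count filter, a replicate block, 2 groups alone, other inputs, medians, each library left out and, added after the data were seen, scaling to chromosome 7 and leaving out the segment. On simulated counts for 1Rb against Cg (53117 windows), 99 of 100 windows changed by 1.5-fold and 100 of 100 changed by 2-fold were recovered, with 12 false calls.

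Named windows are every member, those that passed in a tested contrast, and the 5 largest differences in a described one. Replicate pairs differed by more than sampling noise (chi-square per degree of freedom 1.38 to 34.6 over 18 pairs), so none was a copy. Gene positions and promoters are from RefSeq (GRCm38.p6, the assembly of mm10). A list of genes beside the domain is not reported here.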

Additional observations from a re-analysis of the deposited data

How the results depend on the processing

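The 2 windows that picked the domain kept their direction and side of the threshold in 139 of 144 values over 6 comparisons and the alternatives run. They were picked for their 3Rb differences, and the alternatives reuse the same libraries. Much of this agreement was therefore set by the choice and is no independent support. The exceptions lay near 0, in γH2AX of 1Rb_M against 1Rb_P. The Snrpn and Snurf window, at 0.05, went to −0.041 scaled to chromosome 7, and ran from −0.0031 (without 1Rb_M replicate 2) to 0.11 with each library left out. The upstream window, at −0.02, went to 0.070 with library totals and ran from −0.058 to 0.062 (without 1Rb_M replicate 3), with 0.0073 without 1Rb_P replicate 3. Counts of called windows moved more. γH2AX in 3Rb against 1Rb_M had 5 higher windows, but 3 with DESeq2, 1 with library totals and 41 scaled to chromosome 7, and 14 lower, but 8 scaled to chromosome 7. Against 1Rb_P the 9 higher became 4 with DESeq2, 5 with library totals, 27 scaled to chromosome 7 and 22 with the 2 groups alone. H3.3 in 3Rb against 1Rb had 4 higher and 2 with DESeq2. Against Cg the 20 higher became 10 scaled to chromosome 7, and the 1 lower became 0 with DESeq2, library totals or chromosome 7. The 1 lower window of 1Rb against Cg was 0 with DESeq2. The γH2AX level over input of 0.0011 was 0.12 over the B6 input alone (exact permutation p = 0.00781), −0.032 over the 1Rb_M input alone, −0.0060 by medians and −0.014 without the segment. The cause of these changes was not tested.

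Leaving out each library gave 0 to 34 higher windows for γH2AX in 1Rb_M against 1Rb_P (34 without 1Rb_M replicate 3). 3Rb against 1Rb_M gave 3 to 19 higher (19 without 1Rb_M replicate 2, 3 without 3Rb replicate 1) and 10 to 28 lower (28 without 1Rb_M replicate 3). 3Rb against 1Rb_P gave 4 to 9 higher (4 without 1Rb_P replicate 2, 5 without 3Rb replicate 1). H3.3 in 3Rb against 1Rb gave 2 to 8 higher (8 without 1Rb replicate 1, 2 without 1Rb replicate 3 or 3Rb replicate 2). Against Cg it gave 3 to 20 higher (3 without 3Rb replicate 2, 4 without 3Rb replicate 3, 10 without Cg replicate 1, 12 without Cg replicate 3) and 0 to 1 lower. 1Rb against Cg gave 9 to 10 higher and 0 to 1 lower, and the γH2AX level over input −0.0086 to 0.023.

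Replicate numbers did not pair the samples: 3 of 9 same-number pairs correlated above 0.1 for γH2AX and 1 of 9 for H3.3, and a library correlated best with its own number in 4 of 18 and 3 of 18 comparisons. With the replicate block, H3.3 in 3Rb against Cg had 9 higher and 0 lower windows, and 1Rb against Cg 0 lower. Counting error at the median window, 2.22 to 6.82%, limits single windows, most of all in the B6 input.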
